A study of Homo sapiens with 14 samples.

Results

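The average effect of the Mediator kinase inhibitor SEL120-34A on the messenger RNA of 2 prostate cancer cell lines, LNCaP and 22Rv1, was measured in 12 of the 14 libraries of the series. The 12 libraries are those of the lines sequenced with replicates: 3 DMSO and 3 SEL120-34A libraries in each line, so that 6 treated libraries were set against 6 controls. LNCaP cells depend on androgen and respond to the antiandrogen enzalutamide, whereas 22Rv1 cells react to androgen but grow despite enzalutamide. Both were grown in serum-containing RPMI medium, LNCaP on poly-D-lysine-coated plates, and received SEL120-34A at 1.5 µM or DMSO, its solvent, for 3 days. The remaining 2 libraries, 1 per treatment, came from the androgen receptor-negative line PC3 and entered no test. Each line is a single established culture model, so that the average describes these 2 lines and not prostate tumours in general.

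SEL120-34A blocks the kinases CDK8 and CDK19. Each of them, with cyclin C, MED12 and MED13, forms the kinase module of Mediator, the complex that passes signals from DNA-bound transcription factors to RNA polymerase II. The module binds Mediator reversibly and phosphorylates transcription factors and parts of the transcription machinery, and it can hold back or help transcription depending on the gene. Average means here the mean of the log2 fold change (SEL120-34A minus DMSO) of LNCaP and that of 22Rv1, so that each line had the same weight whatever its depth. A gene was called when the Benjamini-Hochberg adjusted p of edgeR's quasi-likelihood test of that average was under 0.05, and it was said to have moved alike when it was also changed in the same direction at an unadjusted p under 0.05 in each line by itself.

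Libraries held 246063 to 777207 counts, and the 22Rv1 SEL120-34A libraries (246063 to 368778) were all shallower than their controls (476455 to 777207). In LNCaP the SEL120-34A libraries held 291056 to 519928 counts and the controls 412881 to 759548, with SEL120-34A replicates 1 and 2 below every control. Depth thus leaned the same way with treatment in both lines. A level of 0 in a library allowed up to 3.62 to 13.2 CPM (counts scaled by library size, the unit of every level below), for counting error only. All 10 prostate luminal epithelial markers were detected in each of the 4 groups, with a summed level of 3596 to 4983 CPM in LNCaP and 1406 to 1789 CPM in 22Rv1, whereas the 5-gene marker lists of basal, neuroendocrine, fibroblast, leukocyte and endothelial cells each summed to at most 36.5 CPM in any library. Replicates of a group differed by more than sampling noise (chi-square per degree of freedom 1.29 to 2.44), so none was counted as a duplicate, and the biological coefficient of variation over the 12 libraries was 11.1%. The labels do not say whether replicates were separate cultures, so p-values measure the spread between these libraries.

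SEL120-34A changed 426 of 7086 tested genes on average over both lines (6.01%), 275 higher (3.88%) and 151 lower (2.13%), by edgeR's quasi-likelihood test. An unadjusted p under 0.05 was found for 1407 of the 7086 (19.9%), 807 higher and 600 lower. The list counts at that threshold below are to be read beside these. Of the 426 genes, 407 had the same sign in both lines and 19 had opposite signs. Genes that moved alike numbered 197 (2.78%), 124 higher (1.75%) and 73 lower (1.03%). For 88 of the 124 rises and 51 of the 73 falls, every treated library lay beyond every control of its own line in both lines, a pattern found upwards in 2.37% and downwards in 1.69% of all tested genes. The 197 genes were chosen by p-values from these same libraries, so this separation is no separate evidence. The median size of change of the 197 genes was 0.63 on the log2 scale in LNCaP (range 0.27 to 2.30) and 0.69 in 22Rv1 (range 0.25 to 3.54). Opposite changes with an unadjusted p under 0.05 in each line were seen for 22 genes (0.31%), against 129 genes higher (1.82%) and 78 lower (1.1%) in both.

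The balance of rises and falls depended on the scaling. With trimmed mean of M values (TMM) factors the median change of all genes was near 0 and 64.6% of called genes were higher. When libraries were scaled by their totals alone, the median shifted by -0.12 and 29.2% of the called genes were higher (148 higher, 359 lower, with 70 rises and 192 falls alike). None of the 197 genes changed sign under any setting in which it was tested. They were chosen for their changes in these same libraries, which every setting used again, so stable signs are no separate evidence. Leaving out 22Rv1 SEL120-34A replicate 2, the shallowest library, lowered the called genes to 276. These were bulk libraries, in which fewer cells of a kind and less RNA per cell cannot be told apart. In the plot of the change in 22Rv1 against that in LNCaP, the genes that moved alike lie at the upper right and lower left.

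**Figure D1:**
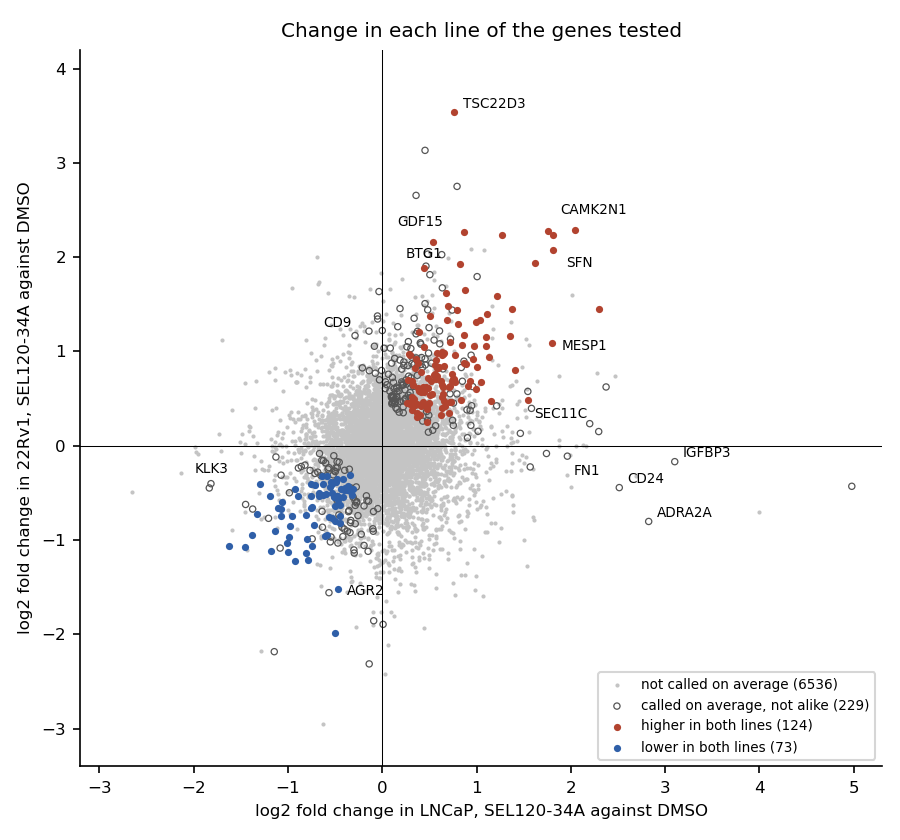
Change with SEL120-34A in 22Rv1 (vertical, log2 fold change) against LNCaP (horizontal, log2 fold change), 1 point per gene. Grey points are 6536 genes not called, and coloured points are 124 genes that rose and 73 that fell alike and 229 called on average without moving alike. A further 124 genes with no counts in an arm are not drawn.

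Genes known to respond to the tumour suppressor p53 and genes that slow growth were among the largest shared rises. Of 35 tested p53 targets, 9 rose on average (25.7%, against 3.88% of all genes) and none fell, 7 of them alike, with a median log2 change of 0.38 against -0.0033 over all genes (0.27 with library totals). At an unadjusted p under 0.05, 16 were higher and 1 was lower. DESeq2, which gave no adjusted p for 3710 of the 7086 genes, called no fall among them either, nor in any other list described here in which edgeR called none. The 9 were SFN, DRAM1, GDF15, GADD45A, BTG1, TP53INP1, RPS27L, CDKN1A and BBC3. Of 30 growth arrest genes (BTG/TOB, ID and MXD families among them), 7 rose (23.3%) and none fell (11 higher and 0 lower at an unadjusted p under 0.05), 4 alike, with a median of 0.29. These 7 include BTG1 and CDKN1A, which were also counted among the 9 p53 targets. Of the growth arrest genes, 3 rose by limma-trend and 4 by edgeR without 22Rv1 SEL120-34A replicate 2.

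BTG1, an antiproliferative partner of the CCR4-NOT deadenylase (ENSG00000133639.6, chr12:92140278-92145846, minus strand, GENCODE on GRCh38), measured 497, 437 and 404 CPM with DMSO and 720.5, 763 and 877 CPM with SEL120-34A in LNCaP. Its level in 22Rv1 was 186, 137 and 127 CPM with DMSO and 628, 568 and 489.8 CPM with SEL120-34A. Every treated library was above every control in each line. The log2 change was 0.83 ± 0.14 in LNCaP and 1.92 ± 0.16 in 22Rv1 (± approximate standard error, 3 libraries per arm), with an average of 1.37 ± 0.10 (edgeR adjusted p = 1.56e-12). Each standard error, here and below, is the size of the log2 change divided by the square root of the F value of its test. It is approximate, above all for genes with few counts. BTG1 nevertheless rose more in 22Rv1 than in LNCaP (difference -1.10 ± 0.21, adjusted p = 0.00256).

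GADD45A, a stress-induced inhibitor of cell cycle progression (ENSG00000116717.13, chr1:67685201-67688334, plus strand), was at 44.1, 61.3 and 41.2 CPM with DMSO and 115, 148 and 107 CPM with SEL120-34A in LNCaP. The 22Rv1 libraries held 25.8, 7.59 and 18.1 CPM with DMSO and 67.6, 57.3 and 20.3 CPM with SEL120-34A. The groups were apart in LNCaP and overlapped in 22Rv1, where 1 control exceeded 1 treated library, and the average change was 1.42 ± 0.24 (edgeR adjusted p = 8.45e-05). GDF15, a secreted stress cytokine (ENSG00000130513.7, chr19:18374731-18389176, plus strand), measured 481, 700.4 and 1252 CPM with DMSO and 1511, 1476 and 1491 CPM with SEL120-34A in LNCaP and 87.2, 96.8 and 77.3 CPM with DMSO and 332, 696 and 264 CPM with SEL120-34A in 22Rv1. The treated libraries were higher throughout, by 0.87 ± 0.20 in LNCaP and 2.26 ± 0.28 in 22Rv1 on the log2 scale (average 1.57 ± 0.17, adjusted p = 3.28e-08, difference between lines -1.39 ± 0.34, adjusted p = 0.0399).

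TP53INP1, a p53-induced nuclear protein of autophagy and apoptosis, rose by 1.08 ± 0.23 on average (edgeR adjusted p = 0.00215), with nearly equal log2 changes of 1.10 ± 0.25 in LNCaP and 1.05 ± 0.39 in 22Rv1. RPS27L, a p53-inducible ribosomal protein paralog, rose by 0.80 ± 0.12 (adjusted p = 1.32e-05), and its reads may be shared in part with RPS27. SFN, the 14-3-3 sigma protein of the G2 checkpoint, stood at 85.2, 77.8 and 74.9 CPM with DMSO and 318, 423 and 272 CPM with SEL120-34A in 22Rv1 but at only 0 to 2.84 CPM in the LNCaP controls and 4.09 to 8.59 CPM in the LNCaP treated libraries. Its average of 1.94 ± 0.45 (adjusted p = 0.00454) therefore rested on 1, 0 and 2 counts in the LNCaP controls, and it was not called without LNCaP SEL120-34A replicate 3 (adjusted p = 0.0774). CDKN1A, the cell cycle inhibitor p21, rose by 0.77 ± 0.20 on average (adjusted p = 0.0119) without passing the rule for moving alike (0.85 ± 0.19 in LNCaP, 0.68 ± 0.34 in 22Rv1), and its call was lost without 22Rv1 SEL120-34A replicate 2 or 3 (adjusted p = 0.0703 and 0.0579). MDM2, the p53-induced ubiquitin ligase, was not called, with an average of -0.01 ± 0.28 (adjusted p = 0.993).

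TSC22D3, the glucocorticoid-induced leucine zipper protein GILZ, measured 41.3, 66.6 and 139 CPM with DMSO and 119, 142 and 161 CPM with SEL120-34A in LNCaP and 11.9, 13.3 and 6.04 CPM with DMSO and 93, 225 and 58 CPM with SEL120-34A in 22Rv1. The arms overlapped in LNCaP and were far apart in 22Rv1, and the change differed between lines (0.76 ± 0.30 against 3.54 ± 0.46, adjusted p of the difference = 0.00693 by edgeR). ID2, an inhibitor of basic helix-loop-helix factors, rose by nearly the same amount in both lines (0.84 ± 0.22 and 1.07 ± 0.23, average adjusted p = 7.88e-05). TOB1, an antiproliferative protein related to BTG1, rose by 0.64 ± 0.15 on average (adjusted p = 0.00609), but not without LNCaP SEL120-34A replicate 2 (adjusted p = 0.0668).

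Other large shared rises belonged to genes of varied function. CAMK2N1, an inhibitor of calcium/calmodulin-dependent kinase II (ENSG00000162545.6, chr1:20482391-20486210, minus strand), measured 89.7, 95.9 and 114 CPM with DMSO and 233, 324 and 432 CPM with SEL120-34A in LNCaP. In 22Rv1 it was at 15.9, 17.1 and 12.1 CPM with DMSO and 78.9, 96.9 and 46.4 CPM with SEL120-34A. All treated libraries exceeded all controls of their line, and the average change of 2.02 ± 0.20 was among the largest of the genes that moved alike (edgeR adjusted p = 2.03e-09).

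SELENOM, a selenoprotein of the endoplasmic reticulum (ENSG00000198832.11, chr22:31104772-31120069, minus strand), was at 107, 112 and 109 CPM with DMSO and 266, 210.0 and 191 CPM with SEL120-34A in LNCaP. In 22Rv1 it reached 622, 603 and 627 CPM with DMSO and 1479, 1881 and 1272 CPM with SEL120-34A. Again no treated library overlapped a control, and the average was 1.16 ± 0.11 (edgeR adjusted p = 1.36e-09). SEC11C, a catalytic subunit of the signal peptidase complex, rose in both lines but more in LNCaP (1.54 ± 0.14) than in 22Rv1 (0.49 ± 0.15), a difference that passed the test (adjusted p = 0.00514).

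RAB17, a small GTPase of epithelial vesicle transport, rose by 1.26 ± 0.17 on average (edgeR adjusted p = 1.94e-06), with no overlap of the arms in either line. KCNN2, a calcium-activated potassium channel subunit, rose by 0.94 ± 0.18 (adjusted p = 0.000723) with almost the same change in LNCaP (0.96 ± 0.16) and 22Rv1 (0.92 ± 0.32), although its level was 132 to 321 CPM in LNCaP and 17.8 to 53.5 CPM in 22Rv1. MESP1, a mesoderm basic helix-loop-helix transcription factor, rose by 1.44 ± 0.24 (adjusted p = 0.000113), and in 22Rv1 its arms overlapped by 1 control at 26.6 CPM against treated libraries of 26.1 to 42.3 CPM. SIRT2, a cytosolic deacetylase, rose by 0.88 ± 0.19 (adjusted p = 0.00199). SERPINE2, a secreted protease inhibitor, rose by 1.02 ± 0.24 (adjusted p = 0.00565), but its arms overlapped in LNCaP and its call was lost without LNCaP SEL120-34A replicate 2 (adjusted p = 0.0736). CA12, a membrane carbonic anhydrase, rose by 0.81 ± 0.16 (adjusted p = 0.000825).

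**Figure D2:**
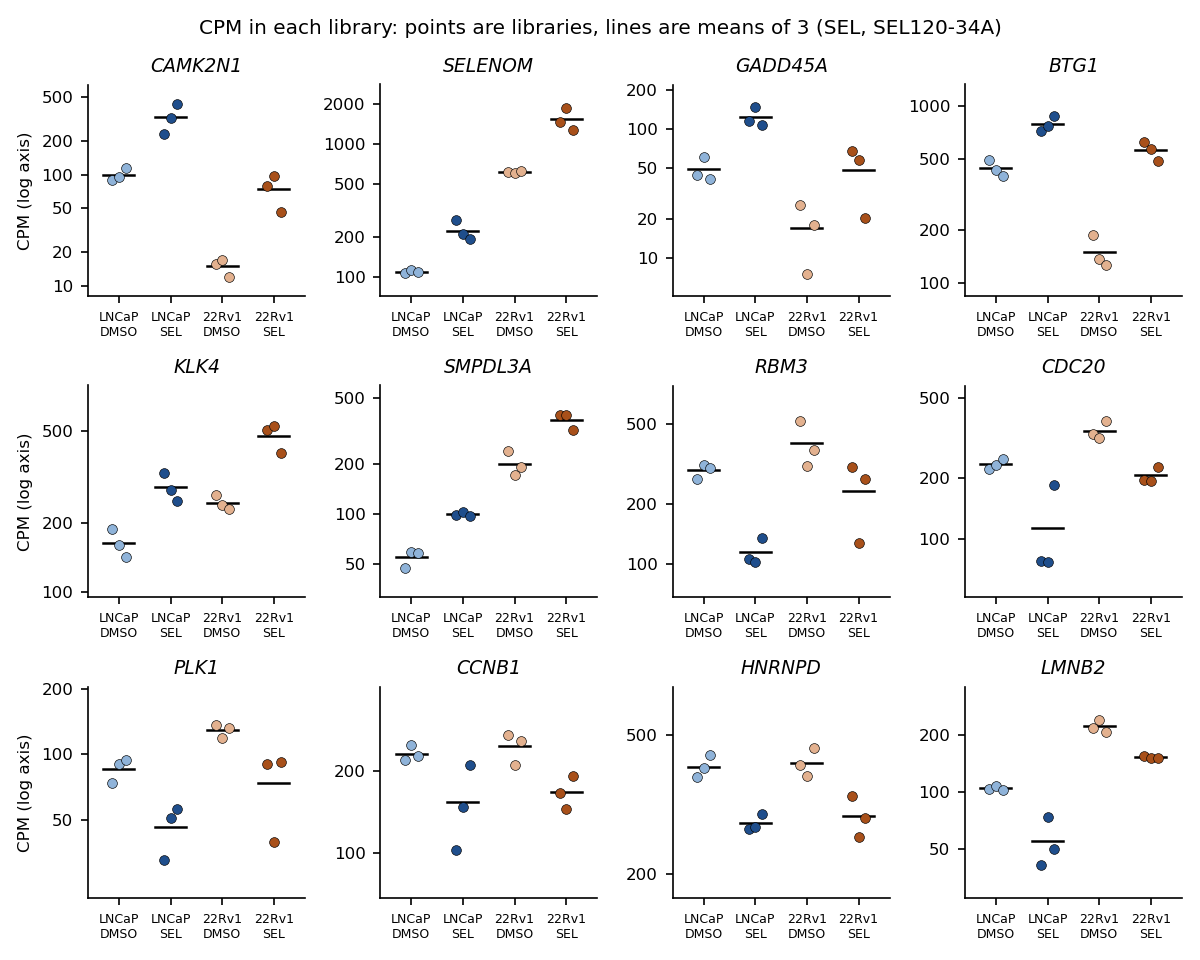
Level of 12 named genes in each library (CPM, log axis), by line and treatment, with 3 libraries per group as points and the group mean as a black line. CAMK2N1, SELENOM, BTG1 and KLK4 are higher in every treated library of both lines, and CDC20, HNRNPD and LMNB2 are lower in every one.

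Lysosomal and cholesterol genes also leaned upwards in both lines. Of 54 tested lysosome genes 9 rose and none fell (24 higher and 0 lower at an unadjusted p under 0.05), 6 of them alike, with a median log2 change of 0.26 (0.14 with library totals), and 37 of 54 (68.5%) had a positive change in both lines, against 28.5% of all tested genes. The count of 9 was 5 without any 1 of LNCaP DMSO replicate 3, LNCaP SEL120-34A replicate 1, 22Rv1 DMSO replicate 3 or 22Rv1 SEL120-34A replicate 2. The members that rose alike were SMPDL3A, CD63, NPC2, LAMP2, ATP6V0B and ATP6V1G1, that is, a phosphodiesterase, membrane and cholesterol carrier proteins and 2 subunits of the proton pump that acidifies lysosomes.

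SMPDL3A, a sphingomyelinase-like nucleotide phosphodiesterase (ENSG00000172594.13, chr6:122789049-122809720, plus strand), measured 47, 58.6 and 58.3 CPM with DMSO and 98.2, 102 and 96.7 CPM with SEL120-34A in LNCaP. In 22Rv1 the values were 238, 171 and 192 CPM with DMSO and 394, 392 and 319 CPM with SEL120-34A. The arms were apart in both lines and the changes nearly equal (0.87 ± 0.22 and 0.88 ± 0.15, average edgeR adjusted p = 2.18e-05). CD63, a tetraspanin of late endosomes, rose by 0.49 ± 0.13 in LNCaP and 0.45 ± 0.12 in 22Rv1 (adjusted p = 0.000658), likewise with no overlap. NPC2, which binds cholesterol in the lysosome and also counts in the cholesterol list, rose by 0.91 ± 0.19 on average (adjusted p = 0.00133).

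Of 27 genes of cholesterol synthesis and uptake, 3 rose (11.1%, against 3.88% of all genes) and none fell (13 higher and 0 lower at an unadjusted p under 0.05). The median was 0.28 (0.16 with library totals), and 19 of 27 (70.4%) had a positive change in both lines. LSS, the lanosterol synthase that closes the sterol ring (ENSG00000160285.15, chr21:46188141-46228824, minus strand), was at 76.9, 61.3 and 68.2 CPM with DMSO and 98.2, 125 and 122 CPM with SEL120-34A in LNCaP and 83.2, 93 and 70.1 CPM with DMSO and 138, 185 and 101 CPM with SEL120-34A in 22Rv1. The arms did not overlap, and its change was 0.74 ± 0.22 in LNCaP and 0.76 ± 0.21 in 22Rv1 (average edgeR adjusted p = 0.000924). IDI1, the isomerase of isopentenyl diphosphate, rose by 0.63 ± 0.14 on average (adjusted p = 0.00263), with 0.43 ± 0.22 in LNCaP, where the arms overlapped.

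ATP6V0B, a subunit of the membrane part of the vacuolar proton pump (ENSG00000117410.14, chr1:43974487-43978295, plus strand), measured 820.0, 764 and 682 CPM with DMSO and 901, 1027 and 896 CPM with SEL120-34A in LNCaP and 781, 786 and 864 CPM with DMSO and 1093, 1370.3 and 1032 CPM with SEL120-34A in 22Rv1, a rise of 0.42 ± 0.09 on average (edgeR adjusted p = 0.00206) with no overlap. Its promoter is shown because it carries the palindromic E-box CACGTG, a motif known from lysosomal genes, more than once. The letters are bases chr1:43974860-43974959 of GRCh38.p14, plus strand, from RefSeq, the last 100 bases before the gene start that RefSeq gives, which lies downstream of the GENCODE start, with both copies in capitals (39 and 57 bases before the start).
ATP6V0B promoter: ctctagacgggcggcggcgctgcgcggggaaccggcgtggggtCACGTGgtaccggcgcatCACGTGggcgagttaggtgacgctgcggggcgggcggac
Of all 27305 RefSeq promoters, 6.49% held this E-box in the 250 bases before the start. Promoters were at hand for 35 of the 54 lysosome genes (64.8%), under the 80% needed for a share over the list.

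Genes of mitosis were prominent among the shared falls. Of 69 tested G2/M and mitosis genes, 15 fell (21.7%) and 1 rose (1.45%), against 2.13% and 3.88% of all genes. The rise was H2AZ1, a histone variant, and 8 of the falls were alike. The median log2 change of the list was -0.36 (-0.48 with library totals), with -0.51 in LNCaP and -0.23 in 22Rv1. The change was negative in both lines for 41 of the 69 (59.4%), against 27.9% of all tested genes. The count of falls stayed between 12 and 18 when any 1 library was left out, and was 11 by DESeq2 and 7 by limma-trend. Beside the members described next, AURKA and SMC4 fell alike (averages -0.66 and -0.83), and KIF20A, BIRC5, TPX2, CKAP2, TUBB4B and TUBA1C were called lower on average only.

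CDC20, the activator of the anaphase-promoting complex (ENSG00000117399.14, chr1:43358981-43363203, plus strand), was at 222, 232 and 250.2 CPM with DMSO and 77.8, 76.6 and 185 CPM with SEL120-34A in LNCaP. In 22Rv1 it was at 333, 317 and 387 CPM with DMSO and 197, 194 and 229 CPM with SEL120-34A. Every treated library was below every control of its line, and the change was -0.96 ± 0.20 in LNCaP and -0.74 ± 0.18 in 22Rv1 (average -0.85 ± 0.14, edgeR adjusted p = 4.73e-05). In LNCaP 1 treated library stayed much nearer to the controls than the others.

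PLK1, a mitotic kinase (ENSG00000166851.15, chr16:23677656-23690367, plus strand), measured 74, 90.5 and 93.8 CPM with DMSO and 32.7, 51.1 and 55.9 CPM with SEL120-34A in LNCaP and 137, 119.6 and 132 CPM with DMSO and 90.2, 39.7 and 92.7 CPM with SEL120-34A in 22Rv1. No treated library reached a control, and PLK1 changed by -0.81 ± 0.25 in LNCaP and -0.73 ± 0.22 in 22Rv1 (average edgeR adjusted p = 0.00263). CCNB1, cyclin B1 (ENSG00000134057.15, chr5:69167135-69178245, plus strand), fell by similar amounts in LNCaP (-0.51 ± 0.18) and 22Rv1 (-0.54 ± 0.18). Neither line called CCNB1 by itself after adjustment, and the average did (edgeR adjusted p = 0.00619), again without overlap of the arms. PIMREG, a mitotic regulator, had an average of -0.89 ± 0.23 (adjusted p = 0.0114), a call lost by limma-trend and when libraries were thinned to the smallest total (adjusted p = 0.0657 and 0.0935). LBR, the lamin B receptor, had an average of -0.85 ± 0.18 (adjusted p = 0.00202).

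Of 51 S phase and DNA replication genes, 5 fell (9.80%, against 2.13% of all genes), RRM2 and MCM7 alike, and none rose. With an unadjusted p under 0.05 there were 11 lower and 0 higher, and DESeq2 called no rise. The median was -0.19 (-0.31 with library totals), but it was -0.36 in LNCaP and -0.03 in 22Rv1, so the list fell chiefly in LNCaP. Leaving out any 1 of 7 libraries lowered the count of falls to 2 or 3, the 2 without 22Rv1 SEL120-34A replicate 1, and DESeq2 called 2. RRM2, the small subunit of ribonucleotide reductase (ENSG00000171848.16, chr2:10120698-10211725, plus strand), was at 343, 378 and 374 CPM with DMSO and 106, 99.3 and 245 CPM with SEL120-34A in LNCaP and 301, 216 and 331 CPM with DMSO and 211, 154 and 217 CPM with SEL120-34A in 22Rv1. The arms were apart in LNCaP and touched in 22Rv1, where the treated libraries at 211 and 217 CPM were about level with the lowest control at 216 CPM. RRM2 fell by 0.86 ± 0.14 on average (edgeR adjusted p = 8.45e-05). MCM7, a subunit of the replicative helicase, had an average of -0.48 ± 0.12 (adjusted p = 0.00834). MCM4, another helicase subunit placed in the MYC target list, fell by 0.78 ± 0.15 (adjusted p = 0.000821). ATAD2 (-0.74 ± 0.20, adjusted p = 0.0181) and TIPIN (-0.99 ± 0.29, adjusted p = 0.0307) were called on average but not alike, and their calls were lost without 2 and 7 of the libraries, respectively (adjusted p up to 0.0561 and 0.103). Those were LNCaP DMSO replicate 1 and 22Rv1 SEL120-34A replicate 1 for ATAD2, and for TIPIN all but LNCaP DMSO replicates 1 and 2, LNCaP SEL120-34A replicate 3, 22Rv1 DMSO replicate 2 and 22Rv1 SEL120-34A replicate 3.

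Many promoters of mitotic genes carry a cell cycle genes homology region (CHR), an element bound by the MuvB complex, which represses these genes outside their phase. The promoters of 4 genes that fell alike are shown for this element, with the CHR (TTTGAA) and its variant (TTTAAA) in capitals. Each is the last 100 bases before the gene start that RefSeq gives, on the plus strand of GRCh38.p14: CDC20 at chr1:43358881-43358980, PLK1 at chr16:23678789-23678888, CCNB1 at chr5:69167050-69167149 and RRM2 at chr2:10122639-10122738. The RefSeq start lies downstream of the GENCODE start in PLK1, CCNB1 and RRM2. The windows of PLK1 and RRM2 thus lie inside the GENCODE gene, and that of CCNB1 crosses its start.
CDC20 promoter: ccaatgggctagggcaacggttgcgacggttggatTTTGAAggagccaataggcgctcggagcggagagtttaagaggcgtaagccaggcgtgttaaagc
PLK1 promoter: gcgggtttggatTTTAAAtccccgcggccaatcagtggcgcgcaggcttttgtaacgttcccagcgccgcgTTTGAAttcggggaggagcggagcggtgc
CCNB1 promoter: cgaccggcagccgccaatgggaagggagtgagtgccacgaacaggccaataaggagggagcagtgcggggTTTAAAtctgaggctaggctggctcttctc
RRM2 promoter: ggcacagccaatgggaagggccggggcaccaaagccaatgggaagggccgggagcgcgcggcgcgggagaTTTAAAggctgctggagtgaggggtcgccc
The CHR lay 65 bases before the start in CDC20 and 29 in PLK1, which also held the variant at 88, and the variant lay 30 bases before the start in both CCNB1 and RRM2. These marks are matches of letters, which do not show what binds there, and RRM2 stands on the S phase list. With both strands searched over 250 bases, 25 of the 56 G2/M list members with a promoter at hand (44.6%) held the CHR and 31 (55.4%) the CHR or its variant, and CCAAT boxes (CCAAT) were found in 39 (69.6%). Among all 27305 promoters the shares were 13.6%, 22.1% and 33.0%. These shares are over all list members with a promoter, whether or not they fell.

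Transcripts of RNA-binding and splicing proteins leaned downwards as well. Of 77 hnRNP, SR and splicing factor genes, 14 fell (18.2%) and 1 rose (1.30%), against 2.13% and 3.88% of all genes. The rise was SF3B6, a subunit of the U2 particle, and 8 of the falls were alike. The median of the list was -0.19 (-0.31 with library totals), and 44 of 77 (57.1%) were negative in both lines. The count of falls was 11 to 20 with any 1 library left out and 5 on the deposited log2 values. RBM3, a cold-inducible RNA-binding protein (ENSG00000102317.18, chrX:48574449-48581162, plus strand), was at 268, 314 and 301 CPM with DMSO and 106, 102 and 135 CPM with SEL120-34A in LNCaP and 521, 309 and 372 CPM with DMSO and 304, 128 and 267 CPM with SEL120-34A in 22Rv1. All treated libraries were below the controls of their line, and the average change was -1.03 ± 0.14 (edgeR adjusted p = 3.9e-06).

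HNRNPD, the AU-rich element binding protein AUF1 (ENSG00000138668.20, chr4:82352498-82374503, minus strand), measured 379, 402 and 439 CPM with DMSO and 270.2, 272 and 297 CPM with SEL120-34A in LNCaP and 410.2, 381 and 460.3 CPM with DMSO and 335, 256 and 289.8 CPM with SEL120-34A in 22Rv1. The changes were -0.53 ± 0.14 and -0.50 ± 0.14 with no overlap (average edgeR adjusted p = 0.000658), so that the smaller size than that of RBM3 came with the same separation. HNRNPU, a nuclear matrix-associated hnRNP, fell by 0.76 ± 0.14 (adjusted p = 0.000304), and SFPQ, a paraspeckle protein, fell by 0.65 ± 0.13 (adjusted p = 0.0016), both with overlapping arms in LNCaP. HNRNPA1, RBMX, HNRNPAB and PTBP1 also fell alike (averages -0.46, -0.52, -0.40 and -0.41), and HNRNPA1 and RBMX have near-identical copies that may share reads.

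Transcripts of proteins that shape chromatin and the nuclear envelope leaned downwards too. Of 35 nuclear lamina, HMG and chromatin architecture genes, 10 fell (28.6%) and 1 rose (H2AZ1, 2.86%), against 2.13% and 3.88% of all genes. Of the falls, 6 were alike, and the median of the list was -0.36 (-0.47 with library totals). The change was negative in both lines for 24 of 35 (68.6%), and 9 to 11 members fell with any 1 library left out. This list shares HMGB2, HMGB3, LBR and H2AZ1 with the G2/M list, and H2AZ1 was not called without any 1 of LNCaP DMSO replicate 1, LNCaP SEL120-34A replicates 1 and 2, 22Rv1 DMSO replicate 3 or 22Rv1 SEL120-34A replicates 1 and 2. LMNB2, lamin B2 (ENSG00000176619.13, chr19:2427638-2456959, minus strand), was at 103, 107 and 102 CPM with DMSO and 40.9, 73.8 and 49.4 CPM with SEL120-34A in LNCaP and 216, 239 and 207 CPM with DMSO and 155, 149.8 and 151 CPM with SEL120-34A in 22Rv1. All treated libraries were below the controls, with an average change of -0.71 ± 0.14 (edgeR adjusted p = 0.000607). HMGB3, a DNA-bending high mobility group protein, fell by 0.87 ± 0.18 (adjusted p = 0.0013), and HMGN2, which binds nucleosomes, fell by 0.69 ± 0.13 (adjusted p = 0.000543). HMGB2 fell on average (-0.62 ± 0.11, adjusted p = 0.000388) but chiefly in LNCaP (-1.13 ± 0.17 against -0.12 ± 0.16 in 22Rv1, adjusted p of the difference = 0.0251).

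Several of the largest falls lay outside these groups. ADK, adenosine kinase (ENSG00000156110.15, chr10:74151202-74709963, plus strand), was at 75.5, 63.9 and 71.1 CPM with DMSO and 36.8, 19.9 and 47.3 CPM with SEL120-34A in LNCaP and 23.8, 51.2 and 38.7 CPM with DMSO and 22.5, 17.6 and 17.4 CPM with SEL120-34A in 22Rv1, with an average change of -0.98 ± 0.24 (edgeR adjusted p = 0.00718). The arms did not overlap in either line, and the call was lost by limma-trend and when libraries were thinned to the smallest total (adjusted p = 0.0550 and 0.0796). PEG10, an imprinted gene derived from a retrotransposon, fell by 1.00 ± 0.19 (adjusted p = 0.000704), with overlap in LNCaP. UNC119B, a carrier of lipidated ciliary proteins, fell by 0.91 ± 0.22 (adjusted p = 0.00635). AGR2, a protein disulfide isomerase of secretory epithelium, fell more in 22Rv1 (-1.52 ± 0.26) than in LNCaP (-0.47 ± 0.18), a difference that did not pass the test (adjusted p = 0.142), with an average adjusted p of 4.59e-05.

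ADI1, a dioxygenase of methionine salvage, was at 325, 373 and 324 CPM with DMSO and 242, 229.9 and 269 CPM with SEL120-34A in LNCaP and 511, 366 and 476 CPM with DMSO and 245, 260.0 and 301 CPM with SEL120-34A in 22Rv1. Every treated library was lower, and ADI1 changed by -0.60 ± 0.11 on average (edgeR adjusted p = 0.000222). IVNS1ABP, a kelch-domain protein, fell by 0.78 ± 0.18 (adjusted p = 0.00478) with no overlap in either line. NUP210, a nuclear pore membrane protein, had an average of -0.70 ± 0.18 (adjusted p = 0.0131), which was not called without 22Rv1 SEL120-34A replicate 1 (adjusted p = 0.0554). SUDS3, a subunit of the SIN3 histone deacetylase complex, had an average of -0.91 ± 0.27 (adjusted p = 0.0298) but rested on 1 to 19 counts per LNCaP library, and it lost its call without 6 of the 12 libraries (adjusted p 0.0507 to 0.174). Those 6 were LNCaP DMSO replicate 3, LNCaP SEL120-34A replicates 1 and 2, 22Rv1 DMSO replicate 2 and 22Rv1 SEL120-34A replicates 1 and 2. EIF3CL had an average of -0.71 ± 0.15 (adjusted p = 0.00183) and is nearly identical to EIF3C, so its reads cannot be assigned with certainty. Its call was lost when libraries were thinned (adjusted p = 0.140).

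Some genes passed the test only because both lines were averaged. Among genes that moved alike without an adjusted p under 0.05 in either line alone, those with the smallest average p were KRR1, COX6A1, SLC25A37 and TOB1 upwards and FARSB, ODC1, CCNB1 and ADK downwards. KRR1, a factor of small ribosomal subunit assembly, was at 88.3, 71.9 and 107 CPM with DMSO and 131, 153 and 142 CPM with SEL120-34A in LNCaP and 91.2, 83.5 and 74.9 CPM with DMSO and 155, 115 and 107 CPM with SEL120-34A in 22Rv1. No treated library overlapped a control, and the changes were 0.65 ± 0.19 and 0.62 ± 0.20 (average edgeR adjusted p = 0.00298). FARSB, a subunit of the phenylalanyl-tRNA synthetase, measured 214, 250.3 and 244 CPM with DMSO and 164, 156 and 180.5 CPM with SEL120-34A in LNCaP and 168, 146 and 155 CPM with DMSO and 104, 115 and 107 CPM with SEL120-34A in 22Rv1. It too was separated in both lines, with changes of -0.48 ± 0.16 and -0.53 ± 0.18 (adjusted p = 0.00494). COX6A1, a subunit of cytochrome c oxidase, rose by 0.44 ± 0.10 (adjusted p = 0.00426), and SLC25A37, the mitochondrial iron importer mitoferrin-1, by 0.64 ± 0.15 (adjusted p = 0.00485). ODC1, the first enzyme of polyamine synthesis, fell by 0.45 ± 0.11 (adjusted p = 0.00533) with overlapping arms in both lines.

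Androgen response genes went in both directions. Of 47 tested, 11 rose (23.4%) and 4 fell (8.51%), against 3.88% and 2.13% of all genes, with 4 rises and 1 fall alike. By limma-trend 3 rose and 3 fell, and with library totals 7 rose and 8 fell. The median was 0.06 but -0.06 with library totals. The falls numbered 7 without LNCaP SEL120-34A replicate 3. KLK4, a prostate kallikrein protease (ENSG00000167749.12, chr19:50906351-50911395, minus strand), was at 188, 159.8 and 142 CPM with DMSO and 327, 278 and 247 CPM with SEL120-34A in LNCaP and 264, 239 and 228 CPM with DMSO and 504, 524 and 400.0 CPM with SEL120-34A in 22Rv1. Every treated library was higher, by 0.77 ± 0.16 in LNCaP and 0.96 ± 0.15 in 22Rv1 (average edgeR adjusted p = 7.11e-07). STEAP1, a protein of the prostate cell surface, rose by 0.58 ± 0.12 in LNCaP and 0.74 ± 0.21 in 22Rv1 (adjusted p = 0.000308), again without overlap, at 745 to 1242 CPM in LNCaP and 59.2 to 121 CPM in 22Rv1.

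KLK3, which encodes prostate-specific antigen (ENSG00000142515.16, chr19:50854915-50860764, plus strand), measured 1260.0, 1393 and 1056 CPM with DMSO and 249.7, 380.3 and 398 CPM with SEL120-34A in LNCaP. In 22Rv1 it was at 13.9, 32.3 and 15.7 CPM with DMSO and 19.7, 8.81 and 14.5 CPM with SEL120-34A. The arms were far apart in LNCaP and overlapped in 22Rv1, where libraries held 2 to 17 counts. KLK3 fell on average (-1.11 ± 0.24, edgeR adjusted p = 0.00215) without moving alike, with -1.82 ± 0.15 in LNCaP and -0.40 ± 0.47 in 22Rv1 (difference -1.41 ± 0.54, adjusted p = 0.291). KLK2 showed the same layout, with -1.37 ± 0.15 in LNCaP and -0.67 ± 0.37 in 22Rv1 (average adjusted p = 0.000537), and the similar sequences of both kallikreins may let them share reads.

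TMPRSS2, an androgen-regulated serine protease, rose on average (1.17 ± 0.28, edgeR adjusted p = 0.00706) and met the rule for moving alike, with controls of 82.6 to 122 CPM against treated libraries of 122 to 164 CPM in LNCaP and 3.62 to 11.4 CPM against 11.6 to 30.8 CPM in 22Rv1. The 22Rv1 controls held 2 to 6 counts, and the call was lost without 22Rv1 DMSO replicate 3 or 22Rv1 SEL120-34A replicate 1 (adjusted p = 0.0534 and 0.0636), in the additive model of line and treatment (0.66, adjusted p = 0.0644) and by limma-trend (adjusted p = 0.0738). FKBP5, a chaperone of steroid receptors, was not called (0.24 ± 0.19, adjusted p = 0.518). ACSL3, an acyl-CoA synthetase, fell alike with an average of -0.65.

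Transcripts encoded by the mitochondrial genome rose together in both lines. Of 14 tested mitochondrially encoded genes, 11 rose (78.6%, against 3.88% of all genes), all 11 alike, with a median of 0.65 (0.53 with library totals). DESeq2 called 10 of them higher and limma-trend 4. This list was added after the rises had been seen, and its members come from a single genome, so that its genes are not independent of each other. The share of all counts that fell on these genes was 13.9 to 17.3% in LNCaP controls and 16.5 to 23.3% in LNCaP treated libraries, and 7.60 to 9.82% against 9.52 to 13.1% in 22Rv1, so that treated and control libraries overlapped in both lines. A share of this kind is also a sign of RNA and cell quality, whose part in the result was not tested.

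MT-ND1, a core subunit of complex I, was at 10158, 9179.7 and 9302 CPM with DMSO and 18708, 15176 and 13124 CPM with SEL120-34A in LNCaP. The 22Rv1 values were 7065, 6080.4 and 6429.6 CPM with DMSO and 10359.9, 11182 and 8929.6 CPM with SEL120-34A. All treated libraries were above the controls of their line, and the change was 0.71 ± 0.13 in LNCaP and 0.64 ± 0.13 in 22Rv1 (average edgeR adjusted p = 2.79e-06). MT-ND2, MT-ND5 and MT-CYB had averages of 0.66 ± 0.10, 0.74 ± 0.11 and 0.72 ± 0.11 (adjusted p = 1.44e-05, 1.9e-05 and 4.59e-05).

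Both ribosomal RNAs, MT-RNR1 (0.05 ± 0.14) and MT-RNR2 (0.28 ± 0.12), and MT-ND4L (0.65 ± 0.28) were not called (edgeR adjusted p = 0.886, 0.178 and 0.168). With mitochondrially encoded genes removed before scaling, 194 genes moved alike, 182 of them among the 186 genes of the first set that were still tested. Of 76 nuclear-encoded genes of oxidative phosphorylation, 3 rose (COX6A1, COX4I1 and COX5A; 3.95%, near the 3.88% of all genes) and none fell (16 higher and 3 lower at an unadjusted p under 0.05), with a median of 0.10 that turned to -0.02 with library totals, and 5 rose without 22Rv1 SEL120-34A replicate 3. With library totals 1 rose and 4 fell, and 1 fell without any 1 of LNCaP DMSO replicate 1, LNCaP SEL120-34A replicate 3, 22Rv1 DMSO replicate 2 or 22Rv1 SEL120-34A replicate 3. COX4I1 (0.37 ± 0.09, adjusted p = 0.00695) and COX5A (0.32 ± 0.08, adjusted p = 0.014) were not called with library totals, and COX5A was also lost without LNCaP DMSO replicate 2 or 3 or 22Rv1 SEL120-34A replicate 2 (adjusted p 0.0504 to 0.0526).

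**Figure D3:**
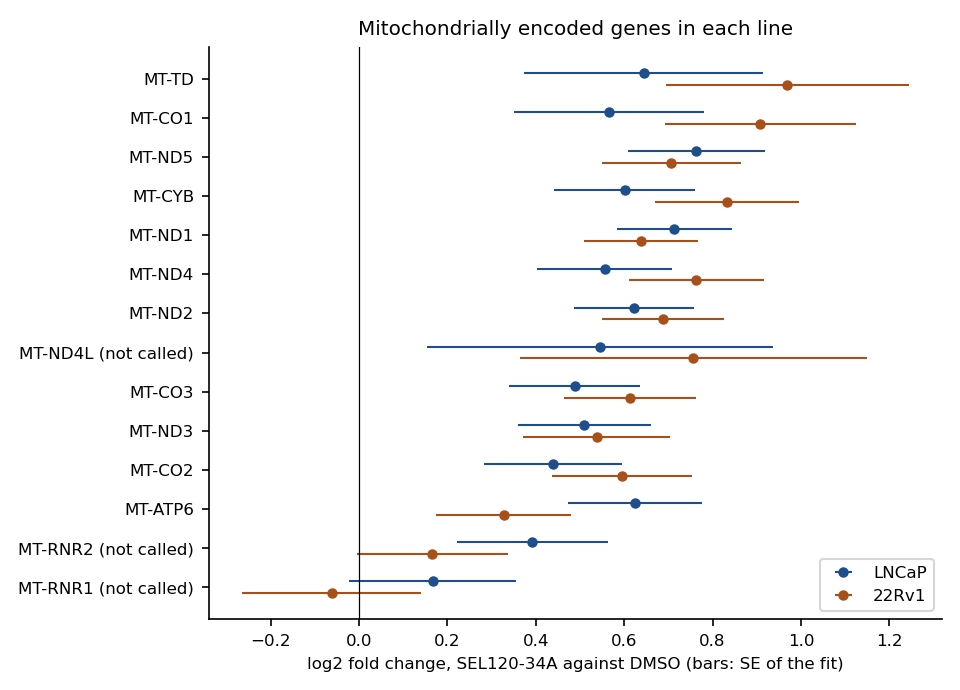
Change of the 14 tested mitochondrially encoded genes with SEL120-34A in each line (log2 fold change, points, with ± 1 standard error as bars, 3 libraries per arm). The ribosomal RNAs MT-RNR1 and MT-RNR2 have the averages nearest to 0, and the genes that rose lie to the right of 0 in both lines.

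Cytosolic ribosomal protein genes rose on average, mostly without moving alike. Of 76 tested, 24 rose on average (31.6%, against 3.88% of all genes) and none fell (44 higher and 0 lower at an unadjusted p under 0.05). Only RPS19 and RPS3A moved alike, and the median of the list was 0.05 in LNCaP and 0.35 in 22Rv1. Only 6 rose with library totals, and 9 to 29 did when any 1 library was left out, 9 of them without 22Rv1 SEL120-34A replicate 2. RPS19 was at 1503, 1561 and 1479.8 CPM with DMSO and 2039, 2055 and 1803 CPM with SEL120-34A in LNCaP and 2198, 1991 and 2053 CPM with DMSO and 3071, 3802 and 2716 CPM with SEL120-34A in 22Rv1, a rise of 0.50 ± 0.09 (edgeR adjusted p = 0.000161) with no overlap in either line. RPLP1, RPS16 and RPL23A were called on average (0.54 ± 0.08, 0.38 ± 0.08 and 0.41 ± 0.10) with changes of 0.23, 0.18 and 0.06 in LNCaP and 0.85, 0.58 and 0.76 in 22Rv1. Ribosomal protein genes took 8.74 to 9.47% of the counts in the 22Rv1 controls and 10.3 to 11.4% in the treated libraries, against 11.03 to 11.65% and 10.37 to 11.85% in LNCaP, where the arms overlapped. Many have processed pseudogenes that may share reads.

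Ribosome biogenesis and MYC target genes leaned downwards. Of 92 tested, 7 fell (7.61%) and 1 rose (1.09%), against 2.13% and 3.88% of all genes. The rise was BRIX1, a factor of large subunit assembly, and 5 falls were alike (MCM4, NCL, ODC1, HSPD1 and PAICS). The median of the list was -0.13 (-0.25 with library totals), and 40 of 92 (43.5%) were negative in both lines. The falls numbered 15 with library totals and 1 by limma-trend, with no rise in either. The single rise was not called without LNCaP SEL120-34A replicate 1, 22Rv1 DMSO replicate 3 or 22Rv1 SEL120-34A replicate 1. NCL, the nucleolar protein nucleolin (ENSG00000115053.17, chr2:231453531-231483641, minus strand), was at 578, 583 and 711 CPM with DMSO and 557, 412 and 398 CPM with SEL120-34A in LNCaP and 535, 526 and 623 CPM with DMSO and 456, 216 and 461 CPM with SEL120-34A in 22Rv1. The arms did not overlap, and NCL changed by -0.48 ± 0.16 in LNCaP and -0.54 ± 0.17 in 22Rv1 (average edgeR adjusted p = 0.00433). LDHA, lactate dehydrogenase A, fell on average (-0.39 ± 0.09, adjusted p = 0.00609), with -0.16 ± 0.14 in 22Rv1. The transcript of MYC itself was not called (0.18 ± 0.14 in LNCaP, 0.21 ± 0.13 in 22Rv1, adjusted p = 0.244), at 429 to 630 CPM in LNCaP and 783 to 1049 CPM in 22Rv1.

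Genes of the endoplasmic reticulum and amino acid supply moved in both directions. Of 53 chaperone and unfolded protein response genes, 4 rose (7.55%) and 3 fell (5.66%), against 3.88% and 2.13% of all genes, with a median of 0.01 that turned to -0.11 with library totals. SELENOM, SEC11C and ERP29 rose alike, and PDIA4, a disulfide isomerase, fell alike (-0.48 ± 0.09, edgeR adjusted p = 0.000785). HSPA5, the chaperone BiP, fell on average (-0.58 ± 0.11, adjusted p = 0.000543), with -0.94 ± 0.15 in 22Rv1 and -0.22 ± 0.16 in LNCaP. Of 37 ATF4 targets and amino acid supply genes, 2 rose (DDIT4 and TARS1) and 2 fell, each 5.41%, against 3.88% and 2.13% of all genes. Both falls were alike, the median was -0.01 (-0.13 with library totals), and 4 rose without LNCaP DMSO replicate 3. ATF5, a stress transcription factor, had -0.92 ± 0.24 (adjusted p = 0.0144), lost without LNCaP DMSO replicate 1 (adjusted p = 0.0587). IARS1, the isoleucyl-tRNA synthetase, had -0.54 ± 0.14 (adjusted p = 0.0169), lost without 22Rv1 DMSO replicate 2 or 22Rv1 SEL120-34A replicate 1 or 2 (adjusted p 0.0503 to 0.0541). TARS1, the threonyl-tRNA synthetase, had 0.49 ± 0.12 (adjusted p = 0.0112), lost without 22Rv1 SEL120-34A replicate 1 (adjusted p = 0.0928).

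Few or none of the remaining lists' members moved alike. Of 33 glycolysis and hypoxia genes, 2 rose (DDIT4 and CA12) and 2 fell (LDHA and GAPDH), each 6.06%, against 3.88% and 2.13% of all genes. Among them CA12 moved alike, and the median of 0.02 turned to -0.10 with library totals. The GAPDH call (-0.32 ± 0.09, edgeR adjusted p = 0.0339) was lost without 6 of the libraries (adjusted p 0.0572 to 0.106), namely LNCaP DMSO replicates 2 and 3, LNCaP SEL120-34A replicate 2, 22Rv1 DMSO replicates 1 and 3 and 22Rv1 SEL120-34A replicate 1. Of 40 epithelial keratin, junction and surface genes, 6 rose (15%) and 1 fell (2.5%), against 3.88% and 2.13% of all genes. RAB17 rose alike, and the median was -0.02. The fall was CLDN7, not called without 22Rv1 SEL120-34A replicate 1. Of 22 mesenchymal and matrix genes, 5 rose (22.7%, against 3.88% of all genes) and none fell (8 higher and 1 lower at an unadjusted p under 0.05). SERPINE2 moved alike, and the median was 0.29 (0.44 with genes absent from an arm at their bound). Without LNCaP SEL120-34A replicate 2 the rises numbered 3. COL6A1, a chain of collagen VI, rose on average (0.82 ± 0.20, adjusted p = 0.00808) but not without 22Rv1 SEL120-34A replicate 2 (adjusted p = 0.149). Of 12 interferon response genes, B2M alone was called and rose (8.33%, against 3.88% of all genes). Its change was 0.51 ± 0.15 (edgeR adjusted p = 0.0295), a call lost without any 1 of 7 libraries (adjusted p 0.0598 to 0.142), namely LNCaP DMSO replicate 3, LNCaP SEL120-34A replicates 1 and 2, 22Rv1 DMSO replicates 2 and 3 and 22Rv1 SEL120-34A replicates 2 and 3. Of 25 immediate early genes, none was called by edgeR or DESeq2. At an unadjusted p under 0.05, 5 were higher and 1 lower, against 807 and 600 of all 7086 genes.

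**Figure D4:**
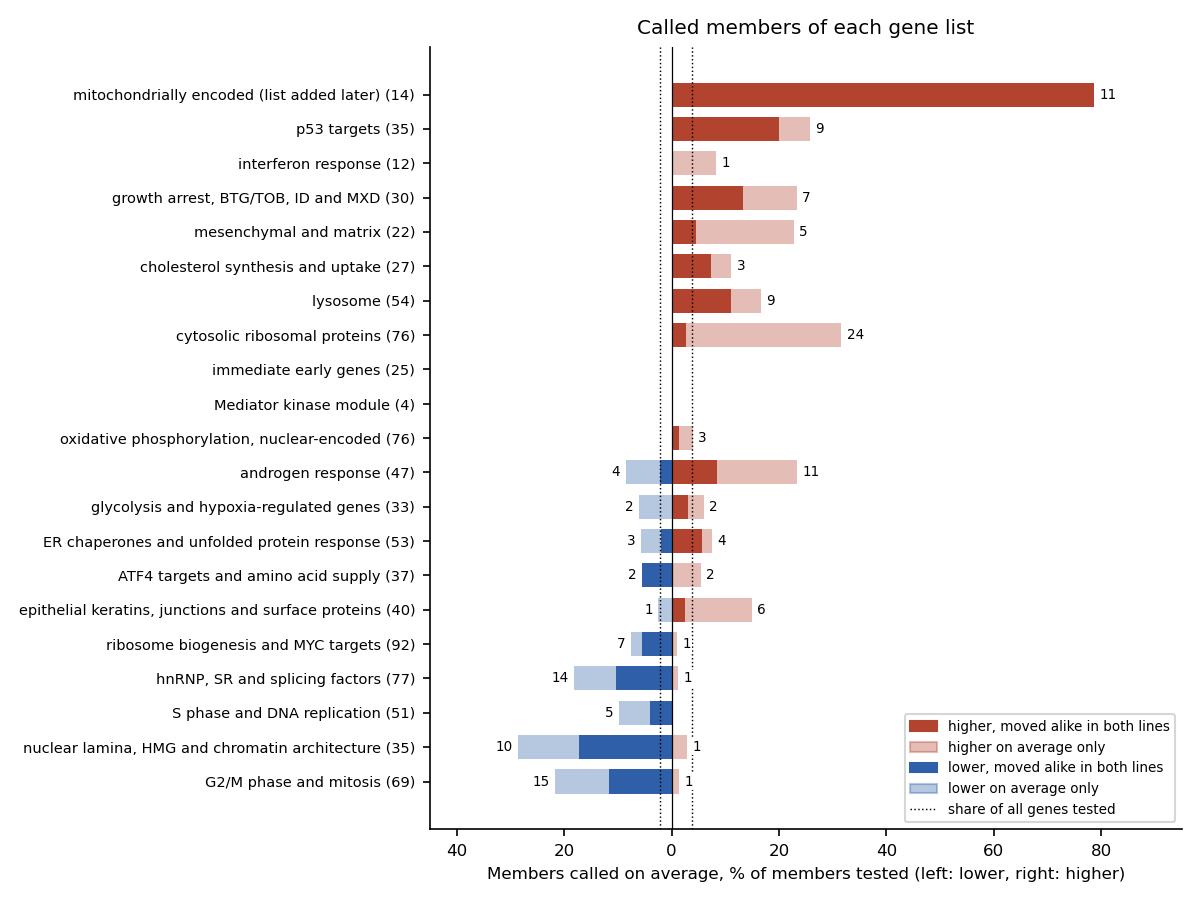
Percent of the tested members of each gene list called on average by edgeR, higher to the right and lower to the left, dark where the members moved alike, with the number called beside each bar and dotted lines at the background of all genes (3.88% higher, 2.13% lower). G2/M, splicing and nuclear lamina lists extend furthest to the left, and p53 targets and ribosomal proteins, beside the mitochondrially encoded genes, to the right.

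For some genes the average was carried by 1 line. The difference between lines was called for 52 of 7086 genes (0.734%), 29 of them among the 426 called on average. ADRA2A, the alpha-2A adrenergic receptor, was at 138, 71.9 and 89.6 CPM with DMSO and 917, 795 and 522 CPM with SEL120-34A in LNCaP. In 22Rv1 it was at 109, 116 and 104 CPM with DMSO and 62, 52.9 and 69.6 CPM with SEL120-34A. The treated libraries were all higher in LNCaP and all lower in 22Rv1 (2.83 ± 0.18 against -0.80 ± 0.26), so that the average of 1.01 ± 0.17 (edgeR adjusted p = 0.000103) described neither line.

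IGFBP3, a binding protein of insulin-like growth factors, changed by 3.10 ± 0.26 in LNCaP and -0.17 ± 0.44 in 22Rv1, and FN1, fibronectin, by 1.96 ± 0.21 and -0.11 ± 0.22. CD24, a mucin-like surface glycoprotein, changed by 2.51 ± 0.37 in LNCaP and -0.44 ± 0.27 in 22Rv1. CD9, a tetraspanin, went the other way, with -0.14 ± 0.13 in LNCaP and 1.22 ± 0.14 in 22Rv1. These 4 genes were called on average by edgeR (adjusted p = 0.000543, 6.47e-05, 0.00382 and 0.000176), though each was changed at an unadjusted p under 0.05 in 1 line only. The call of CD24 was lost in the additive model of line and treatment (0.59, adjusted p = 0.259) and by limma-trend (adjusted p = 0.0657). Of DDIT4, an inhibitor of mTORC1 signalling, and CLDN4, a tight junction protein, the same held, with DDIT4 at 0.48 ± 0.24 and 2.03 ± 0.32 and CLDN4 at -0.05 ± 0.21 and 1.34 ± 0.22. CLDN4 was not called on average without LNCaP SEL120-34A replicate 3 (adjusted p = 0.0608), nor by DESeq2 or limma-trend (adjusted p = 0.119 and 0.207).

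None of the 4 tested kinase module transcripts was called by edgeR or DESeq2 or had an unadjusted p under 0.05 on average. CDK19, a target of the inhibitor, was at 64.1, 58.6 and 76.8 CPM with DMSO and 86, 139 and 68.8 CPM with SEL120-34A in LNCaP and 27.7, 26.6 and 10.9 CPM with DMSO and 33.8, 30.8 and 20.3 CPM with SEL120-34A in 22Rv1, with an average of 0.49 ± 0.25 (adjusted p = 0.252) and overlapping arms. CCNC, cyclin C, had an average of -0.04 ± 0.15 (adjusted p = 0.913) and MED13 of -0.22 ± 0.37 (adjusted p = 0.802). CDK8, with 1 to 10 counts per library, and MED12, with 1 to 16, were too low to be tested. The inhibitor acts on kinase activity, which these counts do not measure.

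The PC3 libraries, 1 per treatment, allowed no test. Of 100 genes that rose alike and had at least 10 counts in each PC3 library, 46 were above 0 in the log2 ratio of SEL120-34A to DMSO, and of 67 that fell alike 38 were below 0, whereas 49.3% of all 5702 genes at that depth were above 0. The median log2 ratio in PC3 was -0.01 for the rises and -0.05 for the falls. CAMK2N1, for example, had 102 counts with DMSO and 59 with SEL120-34A in PC3, a log2 ratio of -0.14 at depths of 909176 and 581208 counts.

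Genes that rose alike had shorter transcripts than those that fell alike, whose median was near that of all genes. The rule did not use this property, and the rises include the 11 mitochondrially encoded genes. The canonical transcript in GENCODE had a median length of 1576 bases for the 124 rises, 2913 for the 73 falls and 2760 for all 7086 genes tested. The interquartile ranges, 904 to 2496 and 1977 to 4634 bases, overlapped. Median GC content was 48.3% for the rises, 44.8% for the falls and 49.4% for all. Both sets also had more counts, with a median of 85.6 per library for the rises and 82.1 for the falls, against 22.6 for all. The part of transcript length, count level or RNA quality in the changes was not tested.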

How the data were processed

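RNA was measured by BRB-seq, a barcoded 3' tag method in which libraries are pooled early. Per the study's methods and the labels, the authors aligned and counted reads with STARsolo on GRCh38.p13 (Gencode). The deposited counts are whole-number reads per gene (62703 features, 41308 of them with 0 counts in the 12 libraries used). Whether molecular identifiers were collapsed, and whether counting used strand, is not given in the sources used here, so intervals and floors cover counting error only and overlapping or antisense genes may share reads. The authors also deposited log2 CPM values, used for 1 alternative only.

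The test was edgeR 4.0.16 (R 4.3.3) quasi-likelihood on the deposited counts, with 4 group means, TMM factors, filterByExpr (7086 genes kept, 124 of them with 0 counts in an arm, none called) and 8 residual degrees of freedom. CPM values use the same factors. Samples were grouped by the labels' cell line and treatment. Benjamini-Hochberg adjustment ran over all 7086 genes, with a threshold of 0.05. Alternatives were DESeq2 1.42.0, limma 3.58.1, other scalings, filters and definitions, thinning, and leaving out each library. Figures used matplotlib 3.10.9. Simulated data held 190 genes changed by 1 log2 unit in both lines, 195 changed by 2 units in 1 line and 6504 unchanged. Of the first, 86.8% were called on average and 77.9% as moved alike. There 6.92% of the genes said to have moved alike had not been changed in both lines. These rates hold for that mix and those sizes only. The median changes of the real genes that moved alike were smaller (0.63 in LNCaP, 0.69 in 22Rv1), and their error rate is not known. Samples with the same replicate number did not deviate together (r -0.05 to 0.12), so they were not paired.

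Named genes, with a mean of at least 20 counts unless on the fixed panel or a list, were, per direction, the 12 that moved alike with the largest smaller change of both lines, the 5 with the smallest average adjusted p and the 4 that moved alike with the smallest average adjusted p but called in neither line alone. The 5 called genes with the smallest adjusted p of the difference between lines, the panel, and up to 4 called members per list were added. The panel and lists, like the comparison itself, were chosen with earlier results of these data known. Gene positions are those of GENCODE on GRCh38, and promoters are from RefSeq (GRCh38.p14), with a promoter at hand for 79.2% of the genes tested. A few genes are not reported here.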

Additional observations from a re-analysis of the deposited data

Results flagged for a closer look

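For 12 of the genes named in the report, the change with SEL120-34A differed between LNCaP and 22Rv1 by edgeR's test of the difference itself (log2 change in LNCaP minus that in 22Rv1, ± standard error, 3 libraries per arm), and for those the average describes the lines less well. ADRA2A (3.63 ± 0.31, adjusted p = 1.33e-10), IGFBP3 (3.27 ± 0.50, adjusted p = 0.000129), CD24 (2.96 ± 0.46, adjusted p = 0.000129), FN1 (2.07 ± 0.30, adjusted p = 5.07e-05) and SEC11C (1.05 ± 0.21, adjusted p = 0.00514) had the higher change in LNCaP. TSC22D3 (-2.77 ± 0.57, adjusted p = 0.00693), DDIT4 (-1.55 ± 0.40, adjusted p = 0.0494), CLDN4 (-1.39 ± 0.30, adjusted p = 0.0129), GDF15 (-1.39 ± 0.34, adjusted p = 0.0399), CD9 (-1.36 ± 0.19, adjusted p = 2.96e-05) and BTG1 (-1.10 ± 0.21, adjusted p = 0.00256) had the higher change in 22Rv1. HMGB2 (-1.01 ± 0.23, adjusted p = 0.0251) fell in LNCaP and was not called in 22Rv1. Of these, BTG1, SEC11C, TSC22D3 and GDF15 met the rule for moving alike, with rises of different size. For TSC22D3 the LNCaP arms overlapped, and its rise there was not called by edgeR in that line alone (adjusted p = 0.21). The cause was not tested.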

How the results depend on the processing

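No gene of the 197 changed sign in a setting in which it was tested (138 were tested with at least 10 counts in every library, 180 after thinning, 184 to 186 with mitochondrially encoded genes removed, and all 197 otherwise). As the 197 were chosen from these same libraries, their stable signs are no separate evidence. Of the 197, 131 stayed called on average in all 12 fits that left out 1 library, 58 of them alike in all 12. Scaling by library totals gave 148 genes higher and 359 lower (70 and 192 alike). Without a filter on low counts 156 were higher and 111 fell alike. DESeq2's Wald test called 97 lower and 115 alike (78 higher, 37 lower), and gave no adjusted p for 3710 genes, 74 of the 426 among them. limma-trend on the deposited log2 values called 232 (141 higher, 91 lower), with 79 rising alike. A log2 change of at least 0.5 left 277 (181 higher, 96 lower). An adjusted p under 0.05 in each line by itself left 35 genes alike (31 higher, 4 lower), and the adjusted larger p of both lines left 10 (10 higher, 0 lower). Leaving out 1 library gave 276 to 456 called genes (185 to 290 higher, 91 to 195 lower) and 146 to 227 alike (42 to 104 lower), the lowest count of called genes and of alike falls without 22Rv1 SEL120-34A replicate 2 (276 and 42). The replicate block called 526 genes (237 alike), although same-numbered samples did not deviate together. DESeq2 size factors gave 424, at least 10 counts in every library 418, the additive model 420, and thinning to the smallest total 323 (137 alike). With mitochondrially encoded genes and their nuclear copies removed, an alternative added after seeing the data, 429 were called and 193 moved alike. Of 89 named genes called on average, 55 kept the call in every alternative that gave an adjusted p and 26 lost it by limma-trend (adjusted p 0.0524 to 0.207). Of the genes not called, the average of MDM2 turned to 0.027 in the additive model and 0.0033 by DESeq2. With 1 library left out it ranged from -0.41 to 0.19, that of CCNC from -0.13 to 0.041, and that of MED13 from -0.44 to 0.27 (0.27 without LNCaP DMSO replicate 3). At these depths genes under about 10 counts per library were mostly not tested. The causes of these differences were not tested.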
